A study of Mus musculus with 12 samples.

Results

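Myb, Mybl2, Mef2c, Bcl11a, Pml and Abl1 are transcription factors, a nuclear body protein and a tyrosine kinase that the study named as predicted miRNA targets with low messages in mouse granulocytes. Their 6 messages, of 19937 genes with a row of their own, were followed over 4 stages of granulopoiesis on Affymetrix Mouse Gene 1.0 ST arrays, a 1-colour array read here as log2 values. The stages were Lin- Sca1+ cKit+ stem and progenitor cells (LSK), promyelocytes, myelocytes and granulocytes, with 3 arrays each and 12 in all. All cells were sorted by antibody from the bone marrow of C57BL/6 mice, were neither cultured nor treated, and carried no engineered allele; the age of the mice is not given in the sources used here. The sort used cKit in every population and CD34, Gr-1 and Fc receptors in the 3 granulocytic ones, and the sorted populations were not fully pure by the study's own reanalysis.

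The members were chosen through measured values. Myb, Mybl2 and Mef2c were named because their message was lower in granulocytes than in promyelocytes while a predicted miRNA was higher, and Bcl11a, Pml and Abl1 because their message was called lowest in granulocytes. Every difference that holds granulocyte arrays is therefore given below as a description with no test. The steps from LSK cells to promyelocytes and from promyelocytes to myelocytes, and the difference between LSK cells and myelocytes, hold no granulocyte array and were tested. The choice of a message as lowest in granulocytes, which the study applied to Myb as well, set granulocytes against each other stage, so the LSK, promyelocyte and myelocyte arrays took part in it as comparators. The promyelocyte arrays also served in the choice of Mybl2 and Mef2c. The tests below are of other contrasts, but not of other arrays.

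Granulocytic cells leave the stem and progenitor pool, pass through dividing promyelocyte and myelocyte stages, and end as segmented neutrophils that no longer divide. Myb keeps progenitors proliferating and drives granule protein genes of the promyelocyte, and its relative Mybl2 joins the MuvB complex to switch on genes of the G2 and M phases of the cell cycle. Mef2c and Bcl11a are transcription factors known for roles in lymphoid progenitors, and Mef2c opposes myeloid fate. Apart from its lymphoid role, Bcl11a silences fetal globin. Pml builds nuclear bodies and is fused to the retinoic acid receptor Rara in acute promyelocytic leukaemia, and Abl1 is the kinase fused to Bcr in chronic myeloid leukaemia.

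Each of the 4 stage marker lists was highest in the population of its label, with markers of neighbouring stages beside it. The summed linear level of the LSK markers Kit, Cd34, Flt3, Hlf and Meis1 was 6870 to 9060 in LSK cells and 247 to 308 in granulocytes. That of the promyelocyte granule markers was 14500 to 21600 in promyelocytes and 2490 to 11800 in LSK cells. That of the myelocyte markers was 42700 to 45900 in myelocytes and 34100 to 39300 in granulocytes, and that of the granulocyte markers was 15800 to 17900 in granulocytes and 6190 to 7450 in myelocytes. Monocyte markers summed to 471 to 1380 in LSK cells, 3810 to 6500 in promyelocytes, 956 to 2720 in myelocytes and 844 to 992 in granulocytes. Among them Csf1r went the other way at the last step, from a log2 mean of 8.05 in myelocytes to 9.26 in granulocytes. The mean of each other monocyte marker was lower in granulocytes than in myelocytes. A mean of 4.51, the level under which nearly all olfactory and vomeronasal receptor genes lay, was taken as dim signal, and no stage mean of the 6 members was at or under it.

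The 6 messages differed at the step from LSK cells to promyelocytes. Promyelocyte arrays overlapped LSK arrays for Myb and lay above them for Mybl2, and both were lower from myelocytes on. Mef2c, Bcl11a, Pml and Abl1 were already lower in promyelocytes than in LSK cells. Between LSK cells and promyelocytes, 2 of 6 members were called lower (Mef2c and Bcl11a) and 0 higher, where a call needed a fold of at least 2 with an adjusted p under 0.05, against 2.75% lower and 1.61% higher of all genes. Between promyelocytes and myelocytes 4 members were called lower (Myb, Mybl2, Mef2c and Bcl11a) and 0 higher, against 9.87% lower and 7.61% higher of all genes. That count leans on the choice of members, in which promyelocyte arrays were comparators. Genes called lower in granulocytes than in promyelocytes had reached a median of 60.3% of that fall by myelocytes. Between LSK cells and myelocytes 5 were called lower and 0 higher, against 10.8% lower and 7.74% higher of all genes, and Mybl2 was the one not called. In a bulk sample, fewer cells that carry a message and less of the message per cell cannot be told apart.

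**Figure D1:**
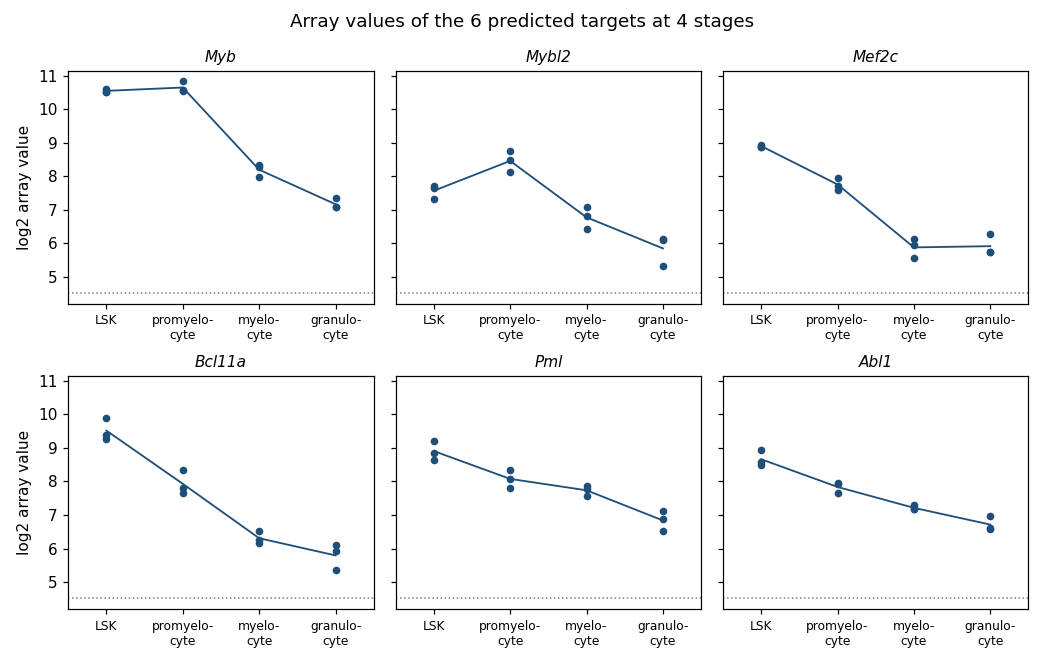
Log2 array values of the 6 predicted targets (vertical axis) in LSK cells, promyelocytes, myelocytes and granulocytes (horizontal axis). Each point is 1 array, the line joins the means of 3 arrays, and the dotted line is the dim level of 4.51. Myb and Mybl2 stay high or rise into promyelocytes, and the other 4 are lower in promyelocytes than in LSK cells.

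Myb, which lies at chr10:21124930-21160984 (GRCm38.p6), gave values of 10.52, 10.52 and 10.60 in LSK cells and 10.53, 10.83 and 10.58 in promyelocytes. These arrays overlapped, and the difference of 0.10 ± 0.14 (SE; 95% interval -0.20 to 0.41, n = 3 arrays per group; adjusted p = 0.722 by limma) did not pass. The values were 7.99, 8.27 and 8.32 in myelocytes and 7.08, 7.34 and 7.07 in granulocytes. Every myelocyte array lay below every earlier array and above every granulocyte array. The step from promyelocytes to myelocytes was -2.45 ± 0.14 on the log2 scale, a 5.47-fold fall (adjusted p = 2.92e-09). Against LSK cells, myelocytes were lower by 5.10-fold (-2.35 ± 0.14, adjusted p = 3.79e-09). As a description, granulocytes stood a further -1.03 below myelocytes and -3.48 below promyelocytes, so that 70.4% of the fall from promyelocytes to granulocytes was reached by the myelocyte stage. The median of that share over all genes called lower in granulocytes was 60.3%. The difference of granulocytes from myelocytes was -0.76 after 75th percentile centring and -0.78 after quantile normalization. That from promyelocytes was -3.11 after 75th percentile centring, so the share for Myb depends on the scaling.

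The study paired Myb with miR-195, miR-150, miR-16 and miR-15b. A miRNA pairs with a message mainly through its seed, bases 2 to 8 from its 5′ end. The mature sequences below, from RefSeq (GRCm38.p6), are shown because 3 of the miRNAs paired with Myb carry the same seed, which is in capitals.
miR-15b-5p: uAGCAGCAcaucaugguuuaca
miR-16-5p: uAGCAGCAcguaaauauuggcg
miR-195a-5p: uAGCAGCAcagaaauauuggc
These 3 differ in the bases after the seed. The arrays measured messages and not mature miRNAs, and no target site in a message was searched here.

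Mybl2, at chr2:163054327-163084688, was the member with its highest values in promyelocytes. It gave 7.72, 7.66 and 7.32 in LSK cells and 8.74, 8.49 and 8.14 in promyelocytes. No promyelocyte array overlapped the LSK arrays, and the difference of 0.89 ± 0.23 (95% interval 0.40 to 1.38; adjusted p = 0.0177) was 1.85-fold, under the fold required for a call. It was called higher without the third promyelocyte array (1.05, adjusted p = 0.0109) and with array weights (1.02, adjusted p = 0.00653). Mybl2 values in myelocytes were 6.44, 6.81 and 7.07, and those in granulocytes were 6.10, 5.31 and 6.13. The stages from promyelocytes on did not overlap, and the step from promyelocytes to myelocytes was a fall of 3.21-fold (-1.68 ± 0.23, adjusted p = 2.42e-05). Myelocytes lay below LSK cells by 1.73-fold (-0.79 ± 0.23, adjusted p = 0.0122), which was not a call. Granulocytes were -0.93 from myelocytes and -2.61 from promyelocytes, and 64.5% of the latter difference was reached by myelocytes.

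Mybl2 was paired by the study with the miR-29 and miR-30 families. Their members share a seed within each family, in capitals below, and the 2 families differ in it.
miR-29a-3p: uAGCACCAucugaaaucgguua
miR-29c-3p: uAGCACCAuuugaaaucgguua
miR-30a-5p: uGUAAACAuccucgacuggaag
miR-30e-5p: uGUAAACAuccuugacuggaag
The same seed was found in miR-29b-3p and miR-30c-5p, so that each family gave 3 sequences; miR-30b-5p, miR-30d-5p and, for Myb, miR-150-5p belong to the study's pairs as well.

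The promoters of Myb and Mybl2 both held the run TTGGCGGGA, the letters of an E2F-type element, on the strand of the gene. Of 32851 RefSeq promoters of 250 bases before to 50 after the listed start, 88 (0.268%) held it on either strand. None of the 3 promoters listed for Mef2c, the 2 for Abl1 and those of Bcl11a and Pml did. The run was chosen after these promoters had been read, so its presence is a description of letters and no evidence of binding. Only this exact run was searched, so its absence does not show that a promoter lacks E2F-type elements. The windows are shown with the run in capitals.
Myb promoter, chr10:21160978-21161004, minus strand: gcgccagatTTGGCGGGAgggggagtg
Mybl2 promoter, chr2:163054611-163054637, plus strand: ccgacgcacTTGGCGGGAgataggaaa
The run began 11 bases before the start that the promoter table lists for Myb and 15 bases before the one it lists for Mybl2. The latter start lies inside the gene span given above for Mybl2, not at its outer end.

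Mef2c, at chr13:83504017-83667079, was tightly grouped in LSK cells at 8.94, 8.88 and 8.88. It gave 7.71, 7.96 and 7.59 in promyelocytes, a fall of 2.22-fold (-1.15 ± 0.18, adjusted p = 0.000547) with no overlap of arrays. The myelocyte values were 5.95, 6.12 and 5.56, which was 3.68-fold below promyelocytes (-1.88 ± 0.18, adjusted p = 5.81e-07) and 8.15-fold below LSK cells (-3.03 ± 0.18, adjusted p = 2.94e-09). The granulocyte values of 5.73, 5.74 and 6.27 overlapped those of myelocytes. Mef2c was the member whose mean was not lowest in granulocytes: granulocytes differed from myelocytes by 0.04, a value that ran from -0.14 to 0.32 over the alternatives and changed sign among them. Granulocytes stood -1.84 from promyelocytes, and myelocytes had reached 102% of that difference.

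Mef2c was paired with miR-223, miR-106b and miR-194, whose sequences are shown because the 3 miRNAs named for 1 message had 3 different seeds, in capitals.
miR-223-3p: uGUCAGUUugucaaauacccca
miR-106b-5p: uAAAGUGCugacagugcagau
miR-194-5p: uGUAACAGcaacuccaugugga
Over all pairs of the 3 messages 15 miRNAs were listed, 12 were matched in the RefSeq table, and these carried 6 distinct seeds.

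Bcl11a, at chr11:24076564-24173558, gave 9.39, 9.28 and 9.88 in LSK cells and 7.66, 8.33 and 7.80 in promyelocytes. The arrays did not overlap, and the fall of 3.01-fold (-1.59 ± 0.22, adjusted p = 0.000218) was the largest of the 6 members at this step. Myelocytes gave 6.16, 6.52 and 6.24, a further fall of 3.07-fold (-1.62 ± 0.22, adjusted p = 2.43e-05), which placed them 9.25-fold below LSK cells (-3.21 ± 0.22, adjusted p = 1.56e-08). Granulocytes gave 5.36, 5.92 and 6.10, all below the myelocyte arrays, at -0.51 from myelocytes and -2.13 from promyelocytes. The difference from myelocytes was -0.24 after 75th percentile centring, -0.27 after quantile normalization and -0.30 without the first granulocyte array. By the myelocyte stage 75.9% of the fall from promyelocytes had been reached.

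Some B cell markers were lower, as Mef2c and Bcl11a were, at the step out of LSK cells. The summed level of the 8 B cell markers measured was 358 to 730 in LSK cells, 249 to 361 in promyelocytes, 178 to 217 in myelocytes and 203 to 221 in granulocytes, and 4 of the 8 (Cd79a, Ebf1, Igll1 and Blnk) were called lower in promyelocytes than in LSK cells. The summed ranges of LSK cells and promyelocytes overlapped. Not called were Pax5 (5.54 in LSK cells and 4.55 in promyelocytes), Vpreb1 (4.83 and 4.65), Cd79b (7.29 and 7.48) and Ms4a1. Cd79a, Ms4a1, Ebf1 and Blnk were at or under the dim level in promyelocytes and granulocytes, and Ms4a1 in LSK cells too. The dendritic cell markers summed to 175 to 212 in LSK cells and 161 to 193 in promyelocytes. Of the 7 measured, 1 was called lower in promyelocytes, Ccr9, and this call was lost without the third LSK array. The part of these cells in the falls of Mef2c and Bcl11a was not tested.

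Pml, at chr9:58217179-58249796, gave 8.65, 8.86 and 9.21 in LSK cells and 8.08, 8.34 and 7.81 in promyelocytes. The arrays did not overlap, and the difference of -0.83 ± 0.19 (1.78-fold; adjusted p = 0.00838) was under the fold required. Myelocytes gave 7.77, 7.87 and 7.57, which overlapped promyelocytes, and the step of -0.34 ± 0.19 (95% interval -0.75 to 0.07; adjusted p = 0.207) did not pass. From LSK cells to myelocytes the fall was 2.25-fold (-1.17 ± 0.19, adjusted p = 0.000123); after centring each array on its median it was -0.99 (adjusted p = 0.000768), just short of the fold. Granulocytes gave 6.53, 6.87 and 7.11, all below the myelocyte arrays. Granulocytes were -0.90 from myelocytes (-0.60 after quantile normalization) and -1.24 from promyelocytes, and 27.6% of the latter was reached by myelocytes, the smallest share among the 6 members.

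Abl1, at chr2:31688244-31807093, went down in 3 steps, none of which reached 2-fold. It gave 8.48, 8.58 and 8.93 in LSK cells and 7.91, 7.94 and 7.66 in promyelocytes, a difference of -0.83 ± 0.16 (1.77-fold; adjusted p = 0.00226) that became a call of -1.01 (adjusted p = 0.000564) after quantile normalization. Myelocytes gave 7.29, 7.17 and 7.18, at -0.62 ± 0.16 from promyelocytes (1.54-fold; adjusted p = 0.00494). Each stage lay below the one before with no overlap of arrays, and from LSK cells to myelocytes the fall was 2.73-fold (-1.45 ± 0.16, adjusted p = 1.89e-06). Granulocytes gave 6.58, 6.60 and 6.96, at -0.50 from myelocytes and -1.12 from promyelocytes, with 55.7% of the latter reached by myelocytes. The difference from myelocytes was -0.19 after quantile normalization and -0.22 after 75th percentile centring, so this share depends on the scaling. Of the 6 members Abl1 had the smallest fold between promyelocytes and granulocytes, 2.17, and Myb the largest, 11.2. Mga, a Myc network repressor that the study also named, lay outside a 2-fold fall at that step, at -0.84, and at -1.01 without the third granulocyte array.

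**Figure D2:**
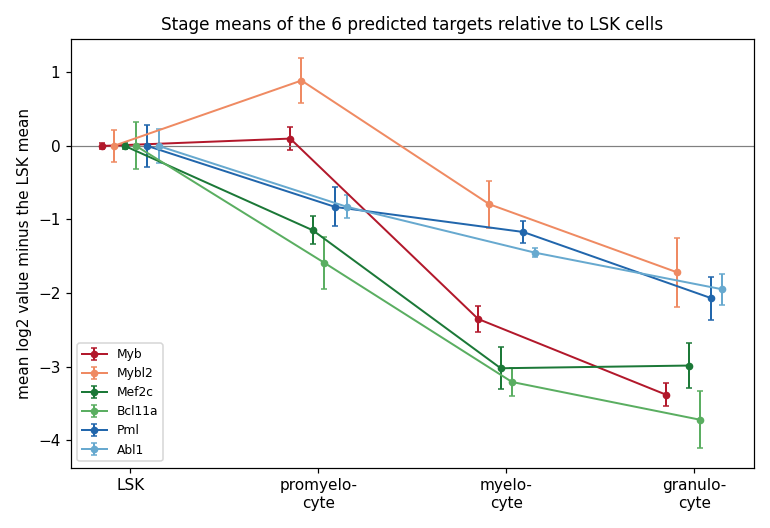
Stage means of the 6 predicted targets minus the LSK mean of the same gene, in log2 units (vertical axis), at the 4 stages (horizontal axis); bars are the SD of 3 arrays. Myb is at 0.10 and Mybl2 at 0.89 in promyelocytes, while the other 4 lie between -0.83 and -1.59, and Mef2c does not fall from myelocytes to granulocytes.

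Across the 12 arrays the members' levels were correlated to different degrees, as a description of points that share stages and arrays. The highest Pearson r was 0.979 between Bcl11a and Abl1, followed by 0.977 between Mef2c and Bcl11a and 0.970 between Pml and Abl1. The lowest was 0.668 between Mybl2 and Pml. Myb correlated at 0.904 with Mybl2 and nearly as highly with Bcl11a (0.899), Mef2c (0.896), Abl1 (0.884) and Pml (0.852). Between promyelocytes and granulocytes none of the 6 members had overlapping arrays, as in 25.3% of all genes in that direction, and 16.3% of all genes were called lower; the members had been chosen on these arrays.

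Genes whose levels were most like each member over the 12 arrays were picked by Pearson r alone. Those most like Myb were Sinhcaf, Ybx3, Rps4x, Rpl36a and Hspa9, each at 0.997. Those most like Mybl2 were Cdc6 (0.981), Haus5 (0.978), Nup37 (0.976), Kif24 (0.976) and Mcm10 (0.975), and Cdc6 and Mcm10 are known for loading and starting replication origins. Mef2c was most like Eng (0.991), Pfkm (0.987), Inka1 (0.986), Meis1 (0.984) and Rab38 (0.984). Bcl11a was most like Adgrl4 (0.992), Plcg1 (0.988), Ifi203 (0.988), Meis1 (0.986) and Etfbkmt (0.985), and Meis1, a homeobox factor of stem cells, was thus near both. Pml was most like Ak3 (0.989), Sugp2 (0.981), Zfp644 (0.981), Med1 (0.977) and Pogz (0.974). Abl1 was most like Zfp664 (0.990), Prrc2c (0.985), Plcg1 (0.985), Ldb1 (0.984) and Dtx3 (0.982).

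Known targets of Myb fell at the same step as Myb. Of 7 measured, 6 were called lower in myelocytes than in promyelocytes and 0 higher (median -3.65, against 0.01 for all genes). Cd34, a progenitor surface protein, fell from 10.39 ± 0.68 to 5.21 ± 0.06 (SD), a difference of -5.18 ± 0.26 (SE). Myc, a transcription factor that drives cell growth, fell from 10.14 ± 0.43 to 5.73 ± 0.50 (-4.41 ± 0.26, adjusted p = 2.74e-09). Mpo, the primary granule peroxidase, fell by 3.85 ± 0.37, and Elane, Bcl2 and Kit made up the 6. Cd34 and Kit were antigens of the sort and Bcl2 was itself a target that the study picked on these arrays, so these 3 are no independent evidence of direction. Mpo and Elane are also among the 5 promyelocyte markers, all 5 of which were called lower at this step. Ccna1 was at or under the dim level in every stage.

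Into promyelocytes, where Myb arrays overlapped, 1 of the 7 was called higher (Mpo, 1.24 ± 0.37, adjusted p = 0.0385) and 1 lower (Kit, -1.02 ± 0.23, adjusted p = 0.00713), beside a median of -0.16 for the list and 0.04 for all genes. Neither call was steady. Mpo was 0.79 (adjusted p = 0.212) without the third LSK array, and did not pass without the first (adjusted p = 0.111) or second (adjusted p = 0.116) promyelocyte array or the second myelocyte array (adjusted p = 0.0517). Kit was -0.96 without the third LSK or the first promyelocyte array and -0.83 without the third promyelocyte array. From myelocytes to granulocytes 3 of 7 were called lower (Elane, Mpo and Myc), against 5.96% of all genes called lower and 2.35% called higher at that step. Elane's call, -1.88 ± 0.55 (adjusted p = 0.0218), was lost without the second or the third myelocyte array (adjusted p = 0.0611 and 0.0797) or the third granulocyte array (adjusted p = 0.121), and Myc's, -1.15 ± 0.26, was at -0.88 without the first myelocyte array.

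The cofactors of Myb took other courses. Of 5 measured, 1 was called higher in myelocytes than in promyelocytes and 0 lower (median 0.65, against 0.01 for all genes). Short of 2-fold, limma gave Men1 as lower (adjusted p = 0.00571) and Crebbp and Taf12 as higher (adjusted p = 0.0225 and 0.00224). Ep300, an acetyltransferase that Myb recruits, rose from 8.32 ± 0.09 to 9.62 ± 0.08 (1.31 ± 0.15, adjusted p = 3.55e-06). Its relative Crebbp differed by 0.65 ± 0.21, Taf12 by 0.76 ± 0.17, Men1 by -0.57 ± 0.15 and Kmt2a by 0.26 ± 0.20, all under 2-fold. Kmt2a, the histone methyltransferase, was the 1 cofactor called at the step before, where it was lower in promyelocytes than in LSK cells (-1.13 ± 0.20, adjusted p = 0.00152); without the third LSK array it was -0.93. Mybl1, the other relative of Myb, was at or under the dim level in LSK cells, promyelocytes and granulocytes.

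Mybl2 was called lower one step before the G2/M genes that its complex is known to switch on. Of 15 measured G2/M genes, limma called 0 between promyelocytes and myelocytes, with a median of -0.22 beside 0.01 for all genes. Aurkb, named after its value was seen, was lower by less than 2-fold (-0.91, adjusted p = 0.00613). Over the same step Mybl2 was at -1.68, starting from its highest stage. Against LSK cells, Mybl2 in myelocytes was at -0.79, which was not a call, and the G2/M median was -0.02. In granulocytes Mybl2 stood at -0.93 from myelocytes. From myelocytes to granulocytes 14 of the 15 were called lower and 0 higher, with a median of -2.58 beside 0.09 for all genes. Plk1, in this list, was also a predicted target that the study chose as lower in granulocytes than in promyelocytes. Top2a, the topoisomerase that untangles chromosomes, fell by 3.41 ± 0.30, and by 2.15 when the gene's rows were averaged. Ccnb2, a mitotic cyclin, fell by 3.09 ± 0.22, and Bub1, a spindle checkpoint kinase, fell to the dim level. Aurkb passed the fold at the earlier step without the second myelocyte array (-1.09, adjusted p = 0.00364) and after quantile normalization (-1.10). The difference between Mybl2 and these genes in the timing of the fall was not tested.

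Among the partners of Mybl2 in the MuvB and pocket protein complexes, 1 of 12 was called lower between promyelocytes and myelocytes and 0 higher (median -0.36, against 0.01). That was Tfdp2, a partner of E2F factors, which fell from 7.58 ± 0.28 to 5.88 ± 0.17 (-1.71 ± 0.24, adjusted p = 3.33e-05). Foxm1, which follows Mybl2 onto the same complex, was 7.41 in LSK cells, 7.53 in promyelocytes and 7.52 in myelocytes, and fell to 5.26 ± 0.43 in granulocytes (-2.26 ± 0.26, adjusted p = 1.44e-05). The study had also listed Foxm1 as a predicted target lower in granulocytes than in promyelocytes, so this test is no independent evidence of direction. Lin9, a core MuvB subunit, fell to the dim level at that last step, and Rbl1, the pocket protein p107, fell by 1.95 ± 0.23. These were the 3 of 12 called at the last step, with a median of -0.36 beside 0.09 for all genes.

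The relatives of Mef2c went different ways. Mef2a, like Mef2c, was lower in promyelocytes than in LSK cells, from 8.51 ± 0.11 to 7.69 ± 0.24 (-0.82 ± 0.16, adjusted p = 0.00252, under 2-fold), but it rose to 9.18 ± 0.12 in myelocytes (1.49 ± 0.16, adjusted p = 1.74e-06) and stood at 9.51 ± 0.22 in granulocytes. Mef2d was 9.14 ± 0.48 in LSK cells and 8.96 ± 0.50 in promyelocytes and fell to 7.61 ± 0.14 in myelocytes (-1.35 ± 0.25, adjusted p = 0.000449). Of the 9 Mef2 factors, class IIa deacetylases and kinases measured, 3 were called higher and 1 lower at that step (median -0.13). At the step before 0 were called, and 3 were lower at an adjusted p under 0.05 but by less than 2-fold. Hdac4, a deacetylase that Mef2 factors recruit, rose by 1.27 ± 0.14 and Mapk7, a kinase that activates Mef2c, by 1.27 ± 0.15. From myelocytes to granulocytes 0 of the 9 were called, but 3 were higher and 2 lower at an adjusted p under 0.05. Of these, Hdac4 and Hdac5 lay just under the fold at 0.98 and 0.95. Each of these deacetylases passed the fold without the second granulocyte array (1.10 and 1.04) and after 75th percentile centring (1.26 and 1.23); Hdac4 also passed without the third myelocyte array (1.00) and Hdac5 without the first (1.05).

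Bcl11b, the T cell relative of Bcl11a, had means of 5.24, 5.38, 5.35 and 5.46 from LSK cells to granulocytes, and none of its 3 steps was called (adjusted p = 0.622, 0.919 and 0.630). In the NuRD complex, the deacetylase and remodelling machine that Bcl11a recruits, 5 of 14 listed genes (Bcl11b included) were called lower between promyelocytes and myelocytes and 1 higher (median -0.50, against 0.01). Mta1 fell by 1.80 ± 0.18, Rbbp7, a histone binding subunit, by 1.75 ± 0.21, and the deacetylase Hdac2 by 1.52 ± 0.17. Mbd2, which binds methylated DNA, rose by 1.19 ± 0.15, a value that dropped to 0.95 after quantile normalization. From myelocytes to granulocytes Rbbp7, Hdac2 and Mta1 were called lower again (median -0.18, against 0.09), of which Mta1, at -1.01, fell short of 2-fold without any 1 of 4 arrays: it was -0.96 without the second and -0.99 without the third myelocyte array, and -0.89 without the first and -0.93 without the second granulocyte array. After quantile normalization it was -0.64. Mta1 was also a predicted target that the study chose as lower in granulocytes than in promyelocytes, so its falls are no independent evidence of direction. Between LSK cells and promyelocytes 1 of the 14, Mta3, was called lower at the limit of 2.00-fold (adjusted p = 0.00358); it was -0.54 when its rows were averaged, -0.97 without the third LSK array and -0.88 without the third promyelocyte array.

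Genes of the Pml nuclear body took several courses at the step into myelocytes, where Pml was not called. Of 11 measured, 3 were called higher and 1 lower between promyelocytes and myelocytes (median 0.14, against 0.01). Sp100, a resident of the same bodies and an interferon-induced gene like Pml, rose from 8.07 ± 0.27 to 10.27 ± 0.03 (2.20 ± 0.19, adjusted p = 1.71e-07) and was at 10.40 ± 0.17 in granulocytes. Rara, the receptor fused to Pml in leukaemia, rose from 5.78 ± 0.14 to 7.06 ± 0.24 (1.29 ± 0.20, adjusted p = 9.23e-05) and then to 9.26 ± 0.28 in granulocytes (2.19 ± 0.20, adjusted p = 2.22e-06). Morc3 rose by 1.14 ± 0.25, but by 0.74 without the third promyelocyte array, and Sumo3, a modifier that Pml bodies are built on, fell by 1.23 ± 0.16. Sumo3 fell again at the last step by 1.32 ± 0.16, and by 0.93 after quantile normalization, and Sumo2 fell by 1.22 ± 0.20, and by 0.99 without the third granulocyte array. With Rara these were the 1 higher and 2 lower of 11 called there (median -0.24, against 0.09). Sumo3 was also a predicted target that the study chose as lower in granulocytes than in promyelocytes, so its falls are no independent evidence of direction. Between LSK cells and promyelocytes 0 of 11 were called, 3 of them lower at an unadjusted p under 0.05 and 1 at an adjusted p under 0.05.

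Abl2, the relative of Abl1, was 7.07 ± 0.35 in LSK cells, 6.99 ± 0.23 in promyelocytes, 6.04 ± 0.12 in myelocytes and 5.97 ± 0.30 in granulocytes. Its step into myelocytes, -0.96 ± 0.20 (adjusted p = 0.00100), was just under 2-fold, and was -1.09 without the first promyelocyte array. Of the 14 partners of Abl kinases 3 were called higher and 1 lower at that step (median 0.17, against 0.01). Dok2, a docking protein that opposes kinase signals, fell from LSK cells to promyelocytes by 1.23 ± 0.17 and rose into myelocytes by 1.88 ± 0.17. Abi1, an adaptor that Abl kinases bind, rose by 1.23 ± 0.13 and the ubiquitin ligase Cbl by 1.18 ± 0.15, the latter being 0.97 after quantile normalization, whereas Abi2 fell to the dim level. At the last step 0 of 14 were called, with 4 higher and 0 lower at an unadjusted p under 0.05, and 2 higher at an adjusted p under 0.05. Bcr, the fusion partner of Abl1, was not called at any of the 3 steps, reached the fold at the middle one without the third promyelocyte array, and was 2.61-fold lower in myelocytes than in LSK cells (-1.38 ± 0.16), a call that was lost at -0.76 when its rows were averaged.

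**Figure D3:**
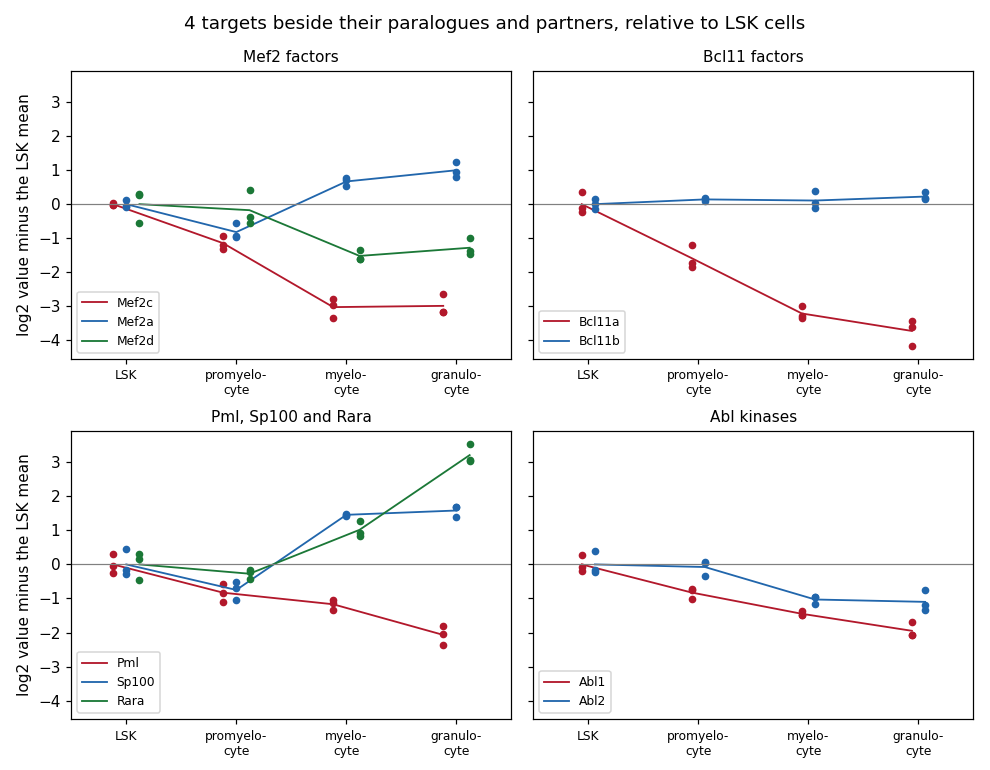
Log2 value of each array minus the LSK mean of the same gene (vertical axis) at the 4 stages (horizontal axis) for Mef2c, Bcl11a, Pml and Abl1 (red) beside relatives or partners; points are arrays and lines join means of 3. Mef2a, Sp100 and Rara rise from promyelocytes to myelocytes, the Bcl11b means stay within 0.22 of the LSK mean, and Mef2d and Abl2 are lower in myelocytes.

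Of the 4 other targets named in the study's text, 3 were called lower between promyelocytes and myelocytes and 0 higher (median -1.13, against 0.01). They were also chosen on granulocyte and promyelocyte arrays. Bcl2, which blocks cell death, fell by 2.11 ± 0.13, Tcf4, an E protein of lymphoid and dendritic cells, by 1.26 ± 0.18, and the Polycomb methyltransferase Ezh2 by 1.01 ± 0.24. Ezh2 was under 2-fold without the second promyelocyte array (-0.93) and without the first myelocyte array (-0.67). Between LSK cells and myelocytes all 4 were called lower, beside 5 of the 6 members. Of these calls Mga, at -1.03 ± 0.17, was -0.94 without the first LSK array, -0.99 without the third, -0.97 without the third myelocyte array and -0.85 with median centring. Ezh2, at -1.12 ± 0.24, was -0.77 without the first myelocyte array and -0.93 with median centring.

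The arrays also held rows for genes of the paired miRNAs and for the genes that host them. Such a row reads the hairpin region of the transcript and not the mature miRNA. Of 16 measured miRNA genes 5 were at or under the dim level in every stage, and 1 was called higher between promyelocytes and myelocytes and 0 lower (median 0.16). Mir16-1 was 4.24 ± 0.05 in LSK cells, which is dim, 4.75 ± 0.12 in promyelocytes, 5.43 ± 0.11 in myelocytes and 6.18 ± 0.40 in granulocytes, and from promyelocytes on each stage lay above the one before with no overlap of arrays. These steps, 0.68 ± 0.17 and 0.75 ± 0.17, were each under 2-fold. The 1 call, Mir15b, rose from a dim level to 5.52 ± 0.70 in myelocytes (adjusted p = 0.0299); this was lost without the first (adjusted p = 0.0994) or second (adjusted p = 0.0623) promyelocyte array and without the second (adjusted p = 0.161) or the third (adjusted p = 0.0784) myelocyte array, and Mir15b was at a dim level again in granulocytes. Mir150 was 6.66, 6.49, 6.84 and 7.28 over the 4 stages with 0 calls in the 3 steps.

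The hosts did not follow 1 course. Smc4, a condensin subunit whose introns hold Mir15b and Mir16-2, was 9.53, 9.67 and 9.63 up to myelocytes and fell by 1.35 ± 0.22 into granulocytes (adjusted p = 0.000277). Mcm7, the replication helicase subunit that hosts Mir106b, fell by 2.21 ± 0.25 into myelocytes and by 2.22 ± 0.25 into granulocytes. Nfyc, which hosts Mir30e, was 8.28, 7.90, 7.91 and 7.85, and Dleu2, which hosts Mir16-1, was under the dim level throughout. Mir106b itself was 5.60 ± 0.16, 5.06 ± 0.07, 5.24 ± 0.07 and 5.40 ± 0.13, with 0 calls in the 3 steps. Into myelocytes the Mir106b value differed by 0.18 ± 0.13, while the Mcm7 message fell. The study's PCR of mature miRNAs gave miR-106b, miR-15b, miR-16 and miR-150 as higher in myelocytes than in promyelocytes. Array rows and mature miRNAs are unlike measures, and the part of miR-106b in the fall of Mef2c was not tested.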

How the data were processed

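Total RNA of the 12 samples was hybridised to Affymetrix Mouse Gene 1.0 ST arrays. The log2 values used are those deposited by the authors, who ran justRMA of Bioconductor, its version being not given in the sources used here. It corrects background, normalizes probes by quantiles and summarises probe sets by median polish. Array medians were 4.96 to 5.12. Precision is limited by the number of arrays, and within groups the median SD was 0.21.

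Of 34760 rows, the 21640 with 1 gene symbol in the platform table were kept, and for each of the 19937 genes the row of highest mean was taken. Each member had 1 row. The dim level is the 95th percentile of the means of 1194 olfactory and vomeronasal receptor genes. Levels of different genes were not compared, since probes differ in response, and no fold is given where a group was dim.

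A linear model of the 4 stages was fitted to all arrays with limma 3.58.1 (lmFit, eBayes) under R 4.3.3, with Benjamini-Hochberg adjustment over all genes, after a test on simulated data. The labels speak of biological replicates but name no animals, so the p-values reflect spread that may in part be technical. The members, the lists and the tests were chosen with earlier results of these data known. Some list genes, among them Foxm1, Plk1, Mta1, Sumo3, Abi2 and Kit, were also study targets chosen as lower in granulocytes than in promyelocytes. Their tests at steps that hold either stage are no independent evidence of direction. Named are the members, their paralogues, all genes of lists of 5 or fewer, in longer lists the called genes with the 3 largest increases and decreases per comparison, and for each member the 5 genes of highest correlation, predicted models left out. Any further gene was named after its values were seen. List genes without a row of their own, such as Ccnb1 and Mef2b, were not analysed here. Alternatives changed the centring, normalization, choice of rows, dim filter, thresholds, spread or block, or left out 1 array.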

Additional observations from a re-analysis of the deposited data

How the results depend on the processing

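The 18 tested differences of the 6 members were recomputed under 23 alternatives, which gave 414 values: 405 kept their direction and their side of the threshold, 1 lost its call (Pml between LSK cells and myelocytes with median centring), 8 gained one and 0 changed direction. With no fold minimum, 4 members were lower and 1 higher between LSK cells and promyelocytes, and with array weights 1 was higher, Mybl2. With each array left out in turn the members called higher at that step ran from 0 to 1, the 1 being Mybl2 without the third promyelocyte array, and those called lower stayed at 2, at 4 between promyelocytes and myelocytes and at 5 between LSK cells and myelocytes. Centring moved the median of all genes: between promyelocytes and granulocytes it was 0.13 as deposited and 0.51 after 75th percentile centring, under which the untested granulocyte difference of Abl1 from promyelocytes was -0.74, that of Pml -0.86 and that of Mef2c -1.46, and calls over all genes turned from 3247 lower and 2020 higher to 2448 lower and 3234 higher. The cause was not tested. Of 1288 recomputed counts over the gene lists, 80 lay past 1.5 times the reported count, 27 of them with no fold minimum; these were counts of a few genes, such as the Myb targets called higher between LSK cells and promyelocytes, 1 as reported and from 0 to 2 over the alternatives. With the replicate number as a block no call of the members changed: 2, 4 and 5 were lower, and 2 Myb targets in place of 1 were called higher in promyelocytes than in LSK cells, Elane being the one gained (1.52, adjusted p = 0.0393). Deviations of same-numbered arrays correlated at -0.25 to 0.25, not every pair being over 0.1, so the numbers were not taken to pair the samples; that 8 of 12 arrays correlated best with their own number is a hint from the data, not the design. Values at the dim level have no order.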
